A study of Homo sapiens with 2 samples.

Results

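The conjugating enzymes examined here are UDP-glucuronosyltransferases (UGT), cytosolic and kappa-class glutathione S-transferases (GST), microsomal glutathione S-transferases (MGST) and sulfotransferases (SULT). They were taken by gene symbol from the expression tables, which gave 54 of the 58174 listed genes: 21 UGT, 17 GST, 3 MGST and 13 SULT genes. The name pattern was the only criterion for membership, and 24 of the 54 genes reached at least 1 TPM (a transcript abundance scaled to gene length and library total) in at least 1 of the libraries. PLC-8024 is a human hepatocellular carcinoma (HCC) cell line. PLC-8024-CTR cells carried a control vector, and PLC-8024-GDF1 cells were stably transduced with GDF1, a ligand of the TGF-β superfamily, by a lentivirus with puromycin selection. RNA-seq comprised 1 library of each, called the CTR library and the GDF1 library from here on, so the groups are single cell populations and no difference has a replicate check, no p-value is given, and TPM keeps no sequencing depth from which a counting error could be computed.

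These enzymes carry out the second phase of detoxification, in which a polar group is joined to a drug, hormone, bile pigment or reactive metabolite so that it can leave the cell. GST and MGST enzymes attach glutathione, UGT enzymes attach glucuronic acid taken from UDP-glucuronate, and SULT enzymes attach a sulfate taken from the donor PAPS. The liver is the main site of these reactions in the body, and each family has many members with overlapping substrates.

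A log2 change here is log2(TPM + 1) in the GDF1 library minus log2(TPM + 1) in the CTR library, and a gene was counted as having risen or fallen when it passed 2-fold on this scale. By that rule 2 of the 24 expressed members rose, SULT2B1 and UGT1A1, 1 fell, UGT1A3, and 21 stayed within 2-fold. Over all 14929 genes with at least 1 TPM, 4.82% rose and 9.61% fell, 14.4% in all. The median change of the 24 members was 0.11, and that of all these genes was -0.20. Rescaling the TPM of the GDF1 library by 1.15, which sets the median log2 ratio of genes with at least 5 TPM to 0, moved the members' median to 0.31 and that of all genes to -0.02. The counts moved with the scale. With a pseudocount of 0.1 in place of 1, 4 members rose and 2 fell, against 7.82% and 15.5% of all genes (23.3% in all), and by the ratio of TPM without a pseudocount 4 rose and 1 fell, against 7.86% and 16.1% (23.9% in all). The ratio covers 23 members, without UGT1A3, and the gene that fell by it is UGT2B4. With rescaled TPM, 3 members rose and 1 fell, against 6.97% and 6.85% (13.8% in all). With the trend of the change along GC content subtracted, 5 rose and 1 fell, against 5.61% and 5.82% of protein-coding genes (11.4% in all). SULT2B1 and UGT1A1 were among the genes that rose in each of these counts. None of these counts deals with the exons that UGT1A1 and UGT1A3 share. With genes that share exons added up, 1 member rose (SULT2B1) and 0 fell, and no share over all genes was computed for that count. In a bulk library, fewer cells expressing a gene and less RNA per cell cannot be told apart.

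**Figure D1:**
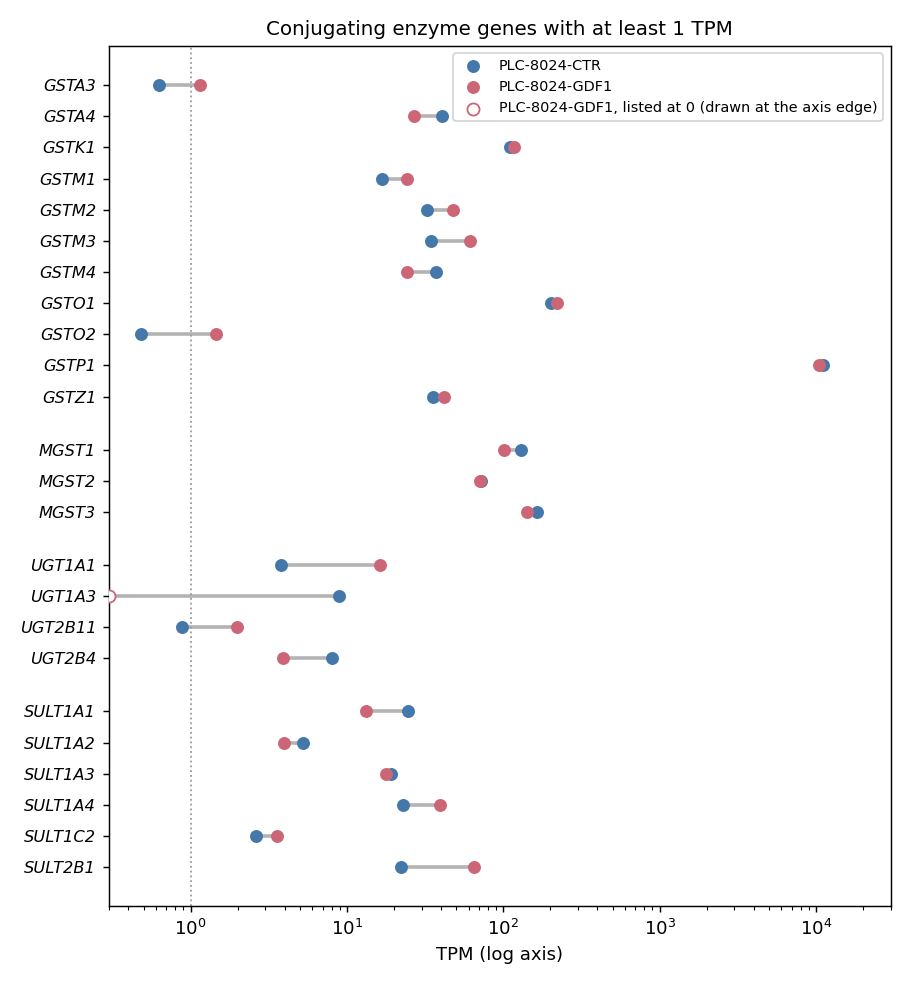
TPM on a log axis of the 24 conjugating enzyme genes that reached 1 TPM, with 1 point for each of the 2 libraries and a grey line joining them. GSTP1 lies alone at the far right, most pairs of points lie close together, and UGT1A3 is listed at 0 in the GDF1 library.

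The check of the overexpression rests on overlapping genes. The GDF1 gene itself had 2.1 TPM in the CTR library and 4.64 TPM in the GDF1 library, while CERS1, whose exons contain the GDF1 coding sequence, had 13.3 and 9612 TPM. The liver identity of the cells was read from markers. The hepatocyte markers ALB, APOA1, TTR, HNF4A, CYP3A4 and TAT summed to 640.8 TPM in the CTR library against 171.5 TPM in the GDF1 library. APOA1 alone gave 602.9 and 158.0 TPM of these sums. Of the 6, 4 fell (ALB, APOA1, TTR and HNF4A), against 9.61% of all genes with at least 1 TPM. With rescaled TPM ALB (-0.998) and HNF4A (-0.84) lay inside 2-fold. KRT7 and KRT19, keratins of bile duct cells, rose from 3.004 to 7.98 TPM and from 4.46 to 10.9 TPM, and SOX9, the remaining bile duct marker, had 4.50 and 5.29 TPM, within 2-fold. Both markers of HCC and fetal liver fell, AFP from 31.4 to 9.75 TPM and GPC3 from 317.8 to 83.3 TPM. The epithelial keratins KRT8 and KRT18 had 1424 and 1777 TPM and 1005 and 1224 TPM, and the epithelial marker EPCAM had 0.17 TPM in the CTR library and was listed at 0 in the GDF1 library. PTPRC, the leukocyte marker, was listed at 0 in both libraries, the fibroblast gene COL1A1 was below 1 TPM in both, and the endothelial gene PECAM1 was listed at 23.2 and 22.2 TPM. The part of the fall of liver markers in the values of the conjugating enzymes was not tested.

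The GST family was dominated by a single gene. GSTP1, the pi-class transferase that is low in normal hepatocytes and high in many tumours, reached 11019 TPM in the CTR library against 10498 TPM in the GDF1 library, a log2 change of -0.07 that became 0.14 with rescaled TPM. It held rank 5 among all listed genes in both libraries. It accounted for 1.10% of the TPM of the whole CTR library and 1.05% of the GDF1 library. Of the TPM of the GST genes it made up 95.6% and 94.9%. The other 16 GST genes together were listed at 511.0 and 567.3 TPM. The gene (ENSG00000084207) lies on chromosome 11 of GRCh37 from 67351213 to 67354127 on the plus strand, and none of the 100-base windows of its longest transcript occurred in a transcript of another gene.

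The promoter of GSTP1 is shown with that of SULT2B1, because these are the most abundant member and the member that rose without sharing exons with another expressed gene. Both are the 250 bases before the transcript start in RefSeq on GRCh38.p14, plus strand, at chr11:67583562-67583811 and chr19:48551922-48552171. Capitals mark the antioxidant response element TGACNNNGC, the site bound by NRF2 and related factors, and the xenobiotic response element core TNGCGTG, the site of the aryl hydrocarbon receptor, each searched on both strands.
GSTP1: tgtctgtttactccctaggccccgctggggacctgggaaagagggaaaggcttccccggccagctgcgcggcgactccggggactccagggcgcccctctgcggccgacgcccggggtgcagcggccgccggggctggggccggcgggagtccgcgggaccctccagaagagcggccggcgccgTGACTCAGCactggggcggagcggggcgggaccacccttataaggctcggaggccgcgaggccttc
SULT2B1: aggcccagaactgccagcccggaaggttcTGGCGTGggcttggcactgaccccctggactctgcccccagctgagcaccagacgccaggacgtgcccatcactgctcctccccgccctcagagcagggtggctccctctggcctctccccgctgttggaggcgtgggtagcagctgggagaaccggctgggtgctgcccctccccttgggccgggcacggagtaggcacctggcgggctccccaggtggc
The GSTP1 window held 1 antioxidant response element, at positions -66 to -58 from the start, and 28 CG pairs, and the SULT2B1 window held 1 xenobiotic response element, at positions -221 to -215, and 11 CG pairs. The motif sites did not overlap. Of the 24 expressed members, 20 had a promoter in the RefSeq table, and 6 of these 20 (GSTA4, GSTM1, GSTO1, GSTP1, SULT1C2 and UGT2B11) held the antioxidant response element and 1 (SULT2B1) the xenobiotic one. Among all 35116 promoters of that length the shares were 10.9% and 4.52%. Those promoters were not limited to expressed genes as the 20 members were, so the sets are unlike and no enrichment is read from them. Of the 6 genes with the antioxidant motif, GSTA4 (-0.57) and GSTP1 (-0.07) were lower in the GDF1 library. GSTM1 (0.50), GSTO1 (0.12), SULT1C2 (0.34) and UGT2B11 (0.66) were higher, all within 2-fold with the pseudocount of 1. With rescaled TPM only GSTA4 (-0.37) was lower. The part of the motif in these values was not tested.

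GSTO1 and GSTK1 followed GSTP1 in abundance. GSTO1, an omega-class enzyme that reduces dehydroascorbate and arsenic compounds, was listed at 201.6 and 219.3 TPM, and GSTK1, the mitochondrial and peroxisomal kappa-class enzyme, at 110.1 and 117.4 TPM. GSTZ1, which also isomerises maleylacetoacetate in tyrosine breakdown, was listed at 35.7 and 41.8 TPM. These 3 genes differed by 0.09 to 0.22 on the log2 scale, well inside 2-fold. GSTO2, the second omega gene, was low, at 0.48 and 1.46 TPM, with a log2 change of 0.73. Its plain TPM ratio was 3.03, so its place inside 2-fold is set by the pseudocount of 1.

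The mu class differed in direction among its members. GSTM3, with 34.6 TPM in the CTR library against 61.6 TPM in the GDF1 library, had the largest log2 change of the GST genes with a pseudocount of 1, 0.81, though not by the plain ratio, where GSTO2 and GSTA3 were larger. It passed 2-fold with rescaled TPM (1.02). GSTM1 was listed at 16.8 and 24.2 TPM and GSTM2 at 32.5 and 47.9 TPM, log2 changes of 0.50 and 0.55. GSTM4 went the other way, with 37.2 and 24.4 TPM, a log2 change of -0.59, and GSTM5 was listed at 0 in both. The 5 genes lie next to each other on chromosome 1 of GRCh37 and detoxify electrophiles and products of oxidative stress. GSTM1 and GSTM2 can exchange reads, since 37.9% of the 100-base windows of GSTM1 also occurred in another expressed gene, mostly GSTM2. GSTM1 also shares exon positions with AC000032.1 on the opposite strand, and whether reads were counted by strand is not known. Added up, GSTM1 and GSTM2 were listed at 49.3 and 72.1 TPM, a log2 change of 0.54, close to that of each gene alone. GSTM3, on the minus strand from 110276554 to 110283660 of chromosome 1, shared no window with another gene. The mu class as a whole was listed at 121.1 and 158.1 TPM.

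The alpha class was carried by GSTA4, which clears 4-hydroxynonenal, a product of lipid peroxidation. GSTA4 had 40.3 TPM in the CTR library against 26.9 TPM in the GDF1 library, a log2 change of -0.57. The classic hepatocyte transferases GSTA1 and GSTA2, abundant in normal liver, were below 1 TPM in both libraries, at 0.56 and 0.75 TPM for GSTA1 and at 0.28 and 0.37 TPM for GSTA2. GSTA3, which takes part in steroid isomerisation, was listed at 0.63 and 1.14 TPM, and GSTA5 at 0.

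All 3 MGST genes were expressed. These enzymes are small membrane proteins of the endoplasmic reticulum and outer mitochondrial membrane with transferase and peroxidase activity. MGST1 was listed at 130.1 and 101.2 TPM, MGST2, which can also form leukotriene C4, at 71.8 and 70.6 TPM, and MGST3 at 163.5 and 141.1 TPM. Their log2 changes were -0.36, -0.02 and -0.21. The values were lower in the GDF1 library for each of the 3, but the median of all genes was also -0.20. With rescaled TPM MGST2 was at 0.18 while MGST1 and MGST3 stayed below 0, and with the GC trend removed all 3 lay above 0, so the signs of these small differences depended on the scaling. MGST2 shares exon positions with MAML3 on the opposite strand, and no source used here states that reads were counted by strand.

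**Figure D2:**
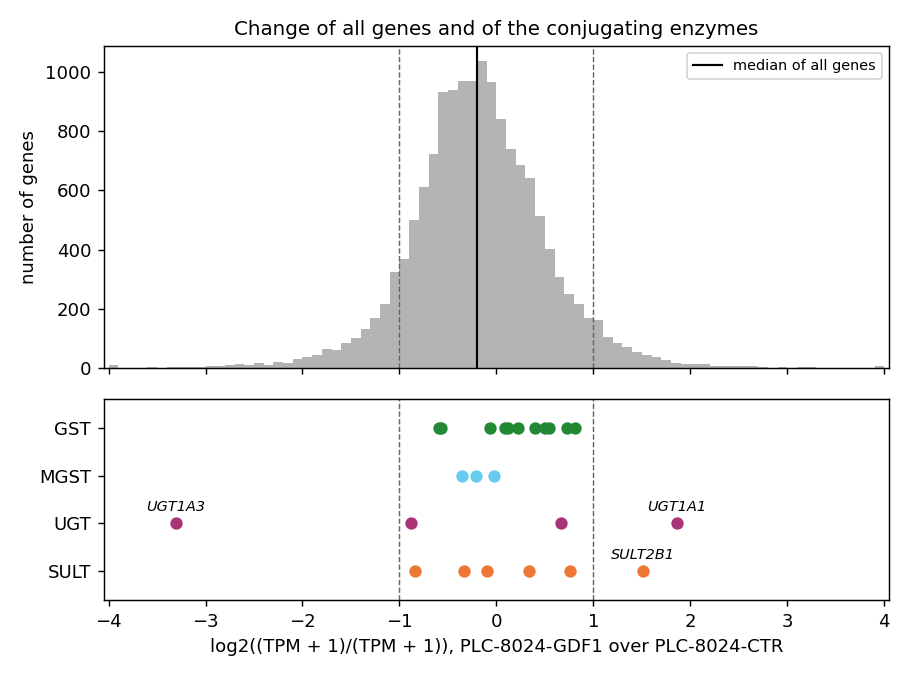
Top, number of genes (14929 that reached 1 TPM) by log2 change from the CTR to the GDF1 library, with values beyond 4 drawn at the edge, a solid line at the median of -0.20 and dashed lines at 2-fold. Bottom, the 24 conjugating enzyme genes by family on the same axis, where UGT1A1, UGT1A3 and SULT2B1 lie outside the dashed lines and the place of UGT1A3, listed at 0 in the GDF1 library, is set by the pseudocount.

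The UGT genes were mostly silent. Of the 21 genes, 17 were below 1 TPM in both libraries and 10 of these were listed at 0 in both. UGT2B7, a major enzyme for morphine and steroid glucuronidation in liver, was at 0.16 and 0.43 TPM, UGT2B10, a nicotine-conjugating enzyme, at 0.077 and 0.32 TPM, and UGT2B15 and UGT2B17, which glucuronidate androgens, were listed at 0.060 and 0 TPM and at 0.28 and 0.12 TPM. The 4 expressed genes were UGT1A1, UGT1A3, UGT2B4 and UGT2B11. UGT2B4, which acts on bile acids, had 8.04 TPM in the CTR library against 3.91 TPM in the GDF1 library, a log2 change of -0.88. With a pseudocount of 0.1 the change of UGT2B4 was -1.02, just past 2-fold. UGT2B11 was listed at 0.88 and 1.98 TPM, a log2 change of 0.66.

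UGT1A1, the only enzyme that conjugates bilirubin to a relevant extent, rose from 3.79 to 16.4 TPM, which is 1.86 on the log2 scale and a plain ratio of 4.33. UGT1A3, which acts on bile acids and oestrogens, went from 8.90 TPM in the CTR library to a listed 0 in the GDF1 library, and no fold is given against 0. Among protein-coding genes, 8127 had at least 5 TPM in the CTR library and only 2 of them were listed at 0 in the GDF1 library, UGT1A3 and the readthrough gene TMEM189-UBE2V1. In the other direction, 8 protein-coding genes with at least 5 TPM in the GDF1 library were listed at 0 in the CTR library. The changes of UGT1A1 and UGT1A3 were opposite and concern genes whose transcripts, as compared below, have most of their sequence in common. All 9 UGT1A genes lie on the plus strand of chromosome 2, and each joins its own exon 1 to the same exons 2 to 5. UGT1A1 (ENSG00000241635) spans 234668916 to 234681946 of GRCh37 and UGT1A3 (ENSG00000243135) spans 234637688 to 234681946.

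The joins of exon 1 to exon 2 are shown because, in the transcripts compared here, only reads on or across exon 1 can separate these genes. Each line gives the last 30 bases of exon 1 in lower case, at chr2:234669768-234669797 for UGT1A1 and chr2:234638610-234638639 for UGT1A3 of GRCh37, plus strand, followed in capitals by the first 30 bases of exon 2, at chr2:234675680-234675709 for both.
UGT1A1: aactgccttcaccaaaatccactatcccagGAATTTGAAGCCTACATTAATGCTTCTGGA
UGT1A3: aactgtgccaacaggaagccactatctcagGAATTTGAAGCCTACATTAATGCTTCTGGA
The capitals are the same in both lines and the lower case parts are not, and over the whole of exon 1 the genes were 61.0% identical. The 4 shared exons comprise 1479 bases, which is 62.6% of the 2361 bases of the UGT1A1 transcript and 60.8% of the 2431 bases of the UGT1A3 transcript. The longest UGT1A1 transcript is another one, of 3389 bases, and 10.5% of its 100-base windows also occurred in UGT1A3. Added up, the 9 UGT1A genes had 12.7 TPM in the CTR library against 16.5 TPM in the GDF1 library, a log2 change of 0.35, inside 2-fold. UGT1A1 made up 29.9% of that sum in the CTR library and 99.6% in the GDF1 library. A change of promoter use and a different assignment of shared reads cannot be told apart from gene-level TPM.

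**Figure D3:**
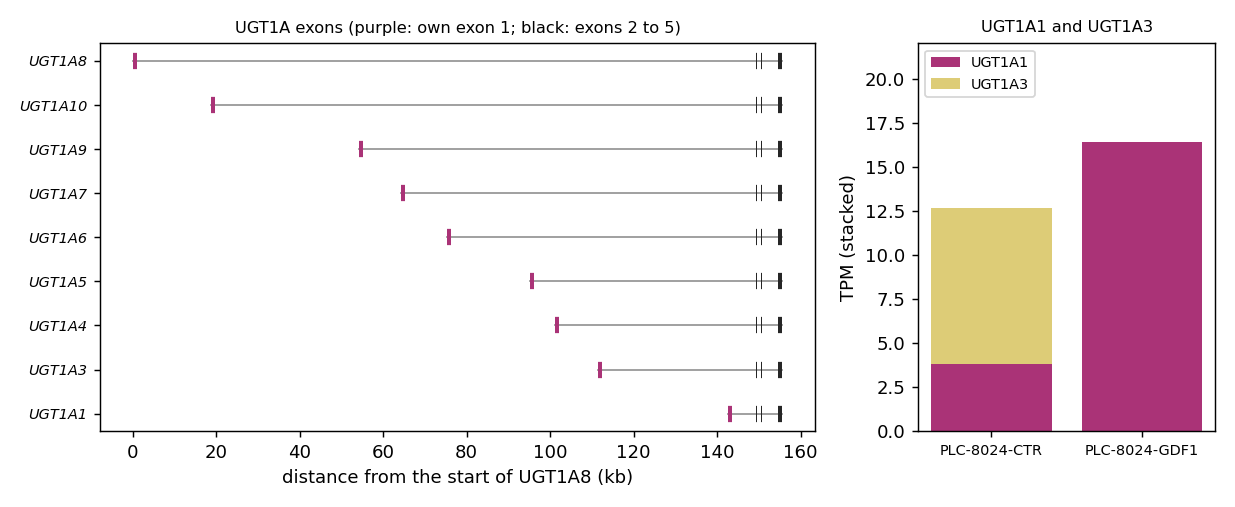
Left, exons of the 9 UGT1A genes by distance in kb from the start of UGT1A8, with each gene's own exon 1 in purple and exons 2 to 5 in black at the same place in every gene. Right, stacked TPM of UGT1A1 and UGT1A3 in the 2 libraries, where the stack changed from 12.7 to 16.4 TPM while its parts changed from mostly UGT1A3 to UGT1A1 alone.

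The 250 bases before the starts of UGT1A1 and UGT1A3 are shown because these separate promoters are what distinguishes the genes upstream. They are from RefSeq on GRCh38.p14, plus strand, at chr2:233760020-233760269 and chr2:233728792-233729041, and neither motif searched above was found in either window, so all letters are in lower case.
UGT1A1: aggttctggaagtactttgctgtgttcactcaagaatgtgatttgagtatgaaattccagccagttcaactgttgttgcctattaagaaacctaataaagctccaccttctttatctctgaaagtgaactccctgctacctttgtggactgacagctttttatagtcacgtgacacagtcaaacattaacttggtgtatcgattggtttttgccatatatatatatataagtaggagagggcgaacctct
UGT1A3: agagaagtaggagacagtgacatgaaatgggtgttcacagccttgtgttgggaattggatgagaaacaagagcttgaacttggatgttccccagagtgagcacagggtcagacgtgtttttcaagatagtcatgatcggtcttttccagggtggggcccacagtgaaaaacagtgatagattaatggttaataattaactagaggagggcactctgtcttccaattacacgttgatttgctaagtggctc
Each window held 3 CG pairs, against 28 in the GSTP1 window.

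Among the sulfotransferases SULT2B1 rose. SULT2B1 sulfates cholesterol and related sterols and is best known from skin and other barrier epithelia. It had 22.1 TPM in the CTR library against 65.0 TPM in the GDF1 library, a log2 change of 1.52 and a plain ratio of 2.94. SULT2B1 (ENSG00000088002) lies on chromosome 19 of GRCh37 from 49055429 to 49102682, plus strand, and no 100-base window of its transcript occurred in another gene. SULT2B1 changed by 1.72 with rescaled TPM and by 1.54 with the GC trend removed. Its share of all SULT transcripts was 22.7% in the CTR library and 45.3% in the GDF1 library. SULT2A1, the hepatic enzyme for dehydroepiandrosterone and bile acids, was below 0.1 TPM in both libraries, and the oestrogen sulfotransferase SULT1E1 was at 0.48 and 0.24 TPM.

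The phenol sulfotransferases of the SULT1A group lie on chromosome 16. SULT1A1, the main enzyme for small phenols in liver, was listed at 24.5 and 13.3 TPM, a log2 change of -0.84, and SULT1A2 at 5.27 and 3.98 TPM, a log2 change of -0.33. Of the 100-base windows of SULT1A1, 16.7% also occurred in another gene, 2.96% in another expressed gene. For SULT1A2 these shares were 13.1% and 4.65%. SULT1A3 and SULT1A4, copies of the gene for the dopamine sulfotransferase, were listed at 19.0 and 17.7 TPM and at 23.0 and 39.6 TPM. Of the windows of SULT1A3, 100% also occurred in another gene, and of those of SULT1A4, 99.8%, so the split between them is uncertain. Both also share exons with readthrough genes. SLX1A-SULT1A3 was listed at 17.3 and 22.2 TPM and SLX1B-SULT1A4 at 17.3 and 7.54 TPM, so SLX1B-SULT1A4 was lower where SULT1A4 was higher. Added up, SULT1A3 and SULT1A4 had a log2 change of 0.44, and the sum of all 4 genes was 76.6 TPM in the CTR library against 87.1 TPM in the GDF1 library, a log2 change of 0.18. SULT1C2 was listed at 2.62 and 3.58 TPM. The whole SULT family was listed at 97.3 TPM in the CTR library against 143.5 TPM in the GDF1 library, a log2 change of 0.56, which was 0.06 without SULT2B1.

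The other 30 members were below 1 TPM in both libraries and together gave 2.93 TPM in the CTR library against 2.60 TPM in the GDF1 library. Of these, 16 were listed at 0 in both. The nearest to the limit of 1 TPM were GSTA1 and UGT3A2 below it, at up to 0.75 and 0.48 TPM, and GSTA3 and GSTO2 above it, at up to 1.14 and 1.46 TPM.

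The enzymes depend on donors and on genes that regulate, reverse or export their products, and 41 such genes were examined. Of the 40 with at least 1 TPM, none rose and 8 fell, against 4.82% and 9.61% of all genes. The median change was -0.53, against -0.20 for all genes. The falls were largest in glutathione supply, where 3 of 6 genes fell. GCLC and GCLM, the catalytic and modifier subunits of the rate-limiting enzyme of glutathione synthesis, fell from 12.8 to 3.77 TPM (-1.53 on the log2 scale) and from 8.33 to 2.85 TPM (-1.28 on the log2 scale). SLC7A11, the cystine importer, fell from 3.33 to 1.06 TPM, while GSS, which completes glutathione synthesis, was listed at 136.5 and 118.1 TPM. GGT1, the 1 gene of this group with a higher value in the GDF1 library, was listed at 92.5 and 121.7 TPM. With rescaled TPM only GCLC and GCLM of the 8 stayed past 2-fold, at -1.36 and -1.12. On that scale 6.85% of all genes fell. With the GC trend removed only GCLC (-1.14) of the 8 stayed past 2-fold, where 5.82% of protein-coding genes fell.

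**Figure D4:**
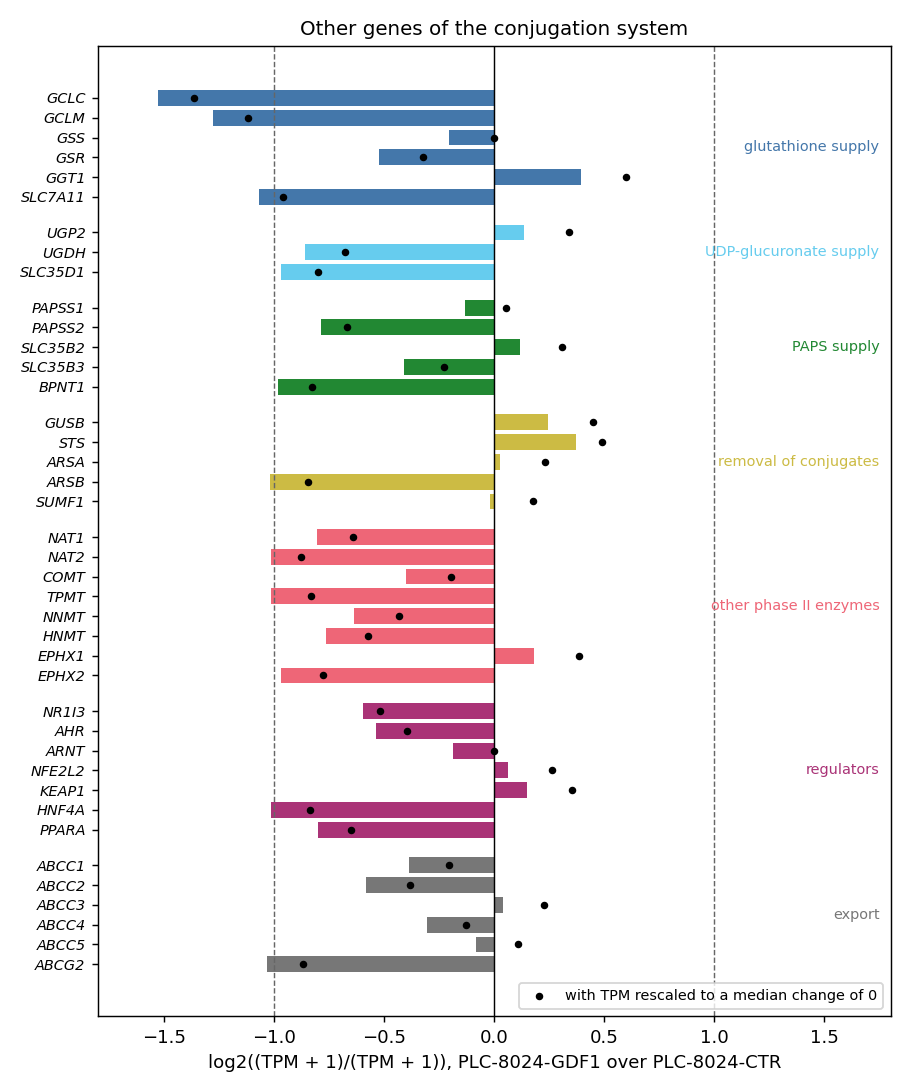
Bars give the log2 change from the CTR to the GDF1 library for the 40 expressed genes of donor supply, removal, other conjugation, regulation and export, and black points the change with rescaled TPM. Dashed lines mark 2-fold, and GCLC and GCLM have the longest bars, at -1.53 and -1.28.

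Donor supply for the other families stayed within 2-fold with the pseudocount of 1. UGDH, which makes UDP-glucuronate, was listed at 12.5 and 6.42 TPM, and SLC35D1, which carries it into the endoplasmic reticulum, at 8.10 and 3.65 TPM, log2 changes of -0.86 and -0.97. PAPSS1 and PAPSS2, which make PAPS, were listed at 8.63 and 7.79 TPM and at 2.83 and 1.22 TPM. BPNT1, which removes the by-product of sulfation, had 6.38 and 2.73 TPM, a log2 change of -0.98. In the same groups UGP2 and SLC35B2 were higher in the GDF1 library, at 48.1 and 52.9 TPM and at 11.2 and 12.2 TPM. The other genes of these groups were lower. By the plain TPM ratio SLC35D1, PAPSS2 and BPNT1 were past 2-fold, so their place inside the limit is set by the pseudocount.

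The remaining falls were among other conjugating enzymes, removal, regulation and export, where 9.61% of all genes with at least 1 TPM fell. Each lay just past 2-fold, at -1.02 (HNF4A) to -1.04 (ABCG2) on the log2 scale. All of them lay inside 2-fold with rescaled TPM and with the GC trend removed. NAT2 and TPMT, an acetyltransferase and a thiopurine methyltransferase, fell from 4.66 to 1.798 TPM and from 16.2 to 7.49 TPM, as 2 of 8 other conjugating enzymes. ARSB, a lysosomal sulfatase, fell from 10.9 to 4.86 TPM, and ABCG2, an exporter of sulfated compounds, fell from 8.95 to 3.86 TPM as 1 of 6 exporters. HNF4A, a liver transcription factor that drives many UGT genes, fell from 11.4 to 5.15 TPM. NFE2L2, which encodes NRF2, the activator of GST and glutathione genes, was listed at 18.5 and 19.4 TPM, and its inhibitor KEAP1 at 36.2 and 40.2 TPM. AHR was listed at 3.56 and 2.14 TPM, and NR1I2, the pregnane X receptor, was below 1 TPM in both libraries.

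The change of all genes followed GC content. Among protein-coding genes in 5 equal groups by the GC content of their longest transcript, the median log2 change ran from -0.48 in the lowest group to 0.11 in the highest. Only 2 members, GSTP1 and SULT2B1, were in the highest group and 3, GSTA4, UGT2B4 and UGT2B11, in the lowest, and the other 19 were in between. From the lowest group to the highest, the medians of the members were -0.57, 0.37, 0.12, -0.22 and 0.72. They rest on only 3, 8, 5, 6 and 2 genes, and whether the members followed the trend was not tested. With a smooth GC trend subtracted, the median of the 24 members was 0.42, and GSTM3 (1.17), GSTO2 (1.06) and UGT2B11 (1.14) passed 2-fold beside SULT2B1 and UGT1A1. The part of GC content in any single value was not tested.

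**Figure D5:**
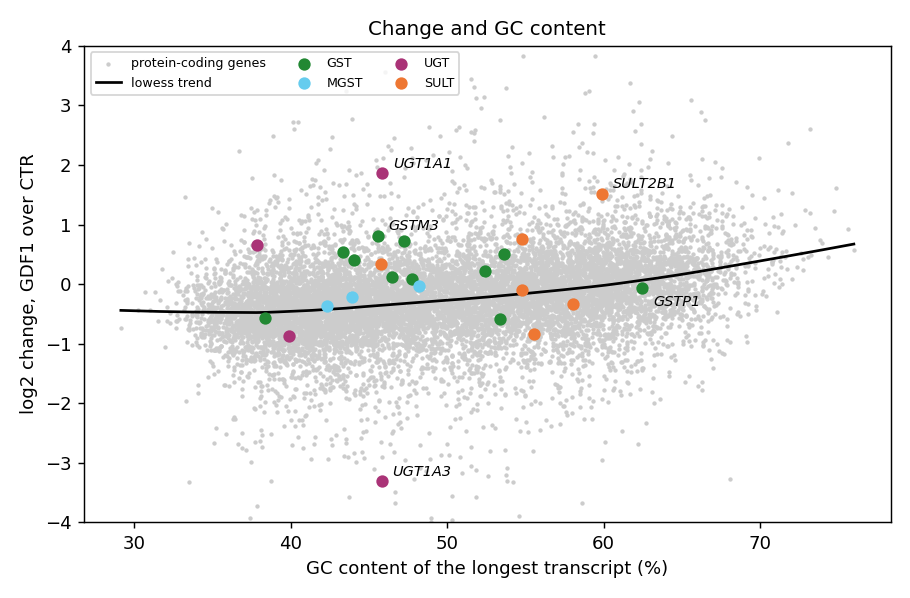
Log2 change from the CTR to the GDF1 library against the percentage of G and C in the longest transcript, for protein-coding genes with at least 1 TPM (grey; values beyond 4 lie outside the axis), with a lowess trend in black and the 24 conjugating enzyme genes coloured by family. The trend rises with GC content, and UGT1A1, UGT1A3 and SULT2B1 lie farthest from it among the members.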

How the data were processed

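RNA-seq was analysed for 1 PLC-8024-CTR and 1 PLC-8024-GDF1 library. Per the methods and the submitters' processing notes, the authors enriched mRNA with poly-T beads, checked paired-end reads with FastQC 0.11.2, trimmed them with Trimmomatic 0.36, aligned them to hg19 with HISAT2 2.1.0 and quantified them with StringTie 1.3.3b. They deposited TPM per gene, with 0.0001 in place of 0, in a column headed as a mean TPM; what was averaged is not given in the sources used here. The methods name a RefSeq annotation, whereas the identifiers are Ensembl. TPM sums to the same total in each library, so depth is unknown and no interval is given. No column of these expression tables held the authors' own comparisons. The paper's methods describe a comparison with DEGseq for samples without replicates, whose results were not used here.

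Log2 changes used a pseudocount of 1, and lists were limited to genes that reached 1 TPM in 1 or both libraries. All members with at least 1 TPM are named. The other genes of the conjugation system are named where past 2-fold, with NFE2L2, KEAP1, HNF4A, NR1I2 and AHR. Donor-supply genes, GSS and GGT1, named beside them, were chosen after their values were seen. So were the members below 1 TPM other than the nearest to that limit. The members and lists were chosen with earlier results of these data known, and 1 gene was taken out of the list of other conjugation genes and is not reported here. Positions, exons, GC content and 100-base windows were taken from the GRCh37 version of GENCODE v44, which matched 52 of the 54 members by identifier and UGT1A3 and UGT1A5 by symbol. A lowess curve (span 0.3) gave the GC trend. The plain TPM ratio was used only where both libraries had at least 0.01 TPM. Promoters came from RefSeq on GRCh38.p14. The alternatives were other pseudocounts, TPM minimums and scalings, and the GC trend removed. Some genes with shared exons or sequence were also added up, or the leading gene of a family was left out. Python 3.11.15, numpy 2.4.6, pandas 2.3.3, statsmodels 0.14.6, Biopython 1.88 and matplotlib 3.10.9 were used. A run on simulated data checked only that the code finds large planted changes and a planted GC trend. Its planted genes had at least 5 TPM and no noise, so it does not bear on how reliable the counts of these libraries are.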

Additional observations from a re-analysis of the deposited data

How the results depend on the processing

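No paired analysis was possible because each group is a single library. A value was judged by its direction and by its side of 2-fold, and a count against 1.5 times its reported value. The UGT1A genes, UGT2A1 with UGT2A2, SULT1A3 with SULT1A4, and GSTT2 with GSTT2B were each added up. With these sums 1 member rose (SULT2B1) and 0 fell, instead of 2 and 1. GSTM1 and GSTM2 were not added up in this count, and no share over all genes was computed for it. At a pseudocount of 0.1, 4 rose and 2 fell. The plain ratio gave 4 that rose, and removal of the GC trend 5. The median of the members was -0.047 over the 20 with at least 5 TPM, below 0 instead of above it. The UGT sum changed by -1.33 without UGT1A1, and the GST sum by 0.15 with rescaled TPM and by 0.15 without GSTP1, each opposite in sign to the whole family (0.04 and -0.06). Without UGT1A1 the UGT sum still holds UGT1A3, which shares exons with it and went from 8.90 TPM to a listed 0. Of the single genes, GSTP1 (0.14), MGST2 (0.18) and SULT1A3 (0.10) changed sign with rescaled TPM, and MGST1 (0.066), MGST2 (0.28), MGST3 (0.18) and SULT1A3 (0.065) with the GC trend removed. In place of UGT1A3, the sum of the UGT1A genes, added after the data were seen as was the readthrough sum, changed by 0.35. SULT2B1 stayed past 2-fold under all 4 of its alternatives. Of the other genes of the conjugation system, 14 instead of 8 fell at a pseudocount of 0.1, against 15.5% of all genes. By the plain ratio 14 did, against 16.1%. With rescaled TPM 2 fell, against 6.85%, and with the GC trend removed 1 did, against 5.82% of protein-coding genes. Rescaling and removal of the trend both raise most changes, which by construction moves genes near the limit. TPM carries no depth, which limits genes with few reads most.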

Other observations

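Relatives of these enzymes outside the name pattern were read after the member values were known. PTGES and LTC4S belong to the same membrane protein superfamily as the MGST genes and make prostaglandin E2 and leukotriene C4. PTGES had 12.7 TPM in the CTR library against 12.9 TPM in the GDF1 library, and LTC4S at 7.24 and 10.96 TPM, both within 2-fold. ALOX5AP, of the same superfamily, and HPGDS, the sigma-class GST of immune cells, were listed at 0 in both libraries. GSTCD, which carries a GST-like domain, was listed at 1.43 and 0.27 TPM, and UGT8, which makes galactosylceramide, at 0.036 and 0.032 TPM.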
